A study of Homo sapiens with 14 samples.

Results

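The EGR, NR4A and IER genes are immediate early genes, whose mRNA is made within minutes of a signal from factors already present in the cell. The set was chosen by name and holds 10 genes, EGR1, EGR2 and EGR3, NR4A1, NR4A2 and NR4A3, and IER2, IER3, IER5 and IER5L. Of these, 7 had a row in the knockdown table of 16405 genes (EGR1, EGR3, NR4A1, NR4A2, IER2, IER5 and IER5L). The RB98# table of 12325 genes had rows for 5 of them, without EGR3 and NR4A2. The expression of EGR2, NR4A3 and IER3 was not analysed here. All values come from RNA-seq of Kasumi-1, an established myeloid leukemia line with the t(8;21) translocation, which is the shared background of every group. Cells were treated with RB98#, a compound known here by its code name alone (n = 2), or with DMSO (n = 2). The labels give no dose or time for RB98#. In a separate experiment the cells took up an shRNA against RBPMS (shRBPMS, n = 3) or a scramble control shRNA (shCtrl, n = 3) by lentivirus for 48 h, with puromycin selection for a further 48 h. Whether the replicates came from cultures grown apart is not in the labels, and p-values may therefore measure technical spread only.

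As background, EGR proteins are zinc finger transcription factors that bind GC-rich DNA, and NAB1 and NAB2 are their co-repressors. NR4A proteins are orphan nuclear receptors that bind DNA without a known hormone, and in mice the combined loss of Nr4a1 and Nr4a3 leads to acute myeloid leukemia. The IER names group genes by their fast induction and not by a shared fold, although IER2, IER5 and IER5L are related in sequence. A growth factor or stress signal reaches such genes through MAP kinases, the serum response factor SRF with its ELK partners, and CREB. Their transcripts are short-lived, so their level follows the recent state of a culture closely.

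The promoters of the genes that the results turn on are shown to let their sequence be read beside their response. RefSeq promoter windows (GRCh38.p14, 250 bases before to 50 after a start, read in the direction of the gene) were found for 7 of the 10 genes, and EGR3, NR4A2 and IER3 were not searched. They were searched on both strands for the CArG box, which SRF binds, for the CREB site TGACGTCA and its core TGACG, for the EGR sites GCGGGGGCG and GCGTGGGCG, and for the NR4A site AAAGGTCA. The core TGACG also lies within the full CREB site. Capitals mark CArG boxes and TGACG cores of either strand. EGR1 lies on the plus strand at chr5:138465229-138465528, and IER2 on the plus strand at chr19:13150161-13150460. NR4A1 lies on the plus strand at chr12:52037465-52037764 (the downstream of the 2 RefSeq starts found for it). IER5L lies on the minus strand at chr9:129178212-129178511.
EGR1: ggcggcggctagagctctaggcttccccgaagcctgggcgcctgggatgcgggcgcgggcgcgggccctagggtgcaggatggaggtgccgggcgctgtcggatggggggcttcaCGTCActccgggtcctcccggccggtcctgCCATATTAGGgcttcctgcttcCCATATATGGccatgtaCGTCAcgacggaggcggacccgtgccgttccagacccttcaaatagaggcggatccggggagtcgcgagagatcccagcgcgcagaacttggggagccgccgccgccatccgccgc
IER2: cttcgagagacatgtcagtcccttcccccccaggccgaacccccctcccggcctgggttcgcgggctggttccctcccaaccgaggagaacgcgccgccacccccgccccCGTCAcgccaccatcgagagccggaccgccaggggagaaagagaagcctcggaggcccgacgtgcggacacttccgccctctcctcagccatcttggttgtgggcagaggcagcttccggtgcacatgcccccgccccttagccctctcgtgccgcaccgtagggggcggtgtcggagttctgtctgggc
NR4A1: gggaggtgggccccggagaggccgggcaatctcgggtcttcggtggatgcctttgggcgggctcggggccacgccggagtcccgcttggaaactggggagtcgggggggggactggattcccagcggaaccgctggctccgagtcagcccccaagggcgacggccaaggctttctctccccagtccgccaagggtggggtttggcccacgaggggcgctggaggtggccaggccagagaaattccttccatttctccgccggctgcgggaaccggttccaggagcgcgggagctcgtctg
IER5L: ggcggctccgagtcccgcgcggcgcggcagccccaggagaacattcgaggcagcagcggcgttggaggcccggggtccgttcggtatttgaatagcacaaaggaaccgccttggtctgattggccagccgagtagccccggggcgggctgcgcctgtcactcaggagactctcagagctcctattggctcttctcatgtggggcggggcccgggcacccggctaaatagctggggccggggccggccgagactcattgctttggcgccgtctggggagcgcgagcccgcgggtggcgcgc
The EGR1 window held 2 CArG boxes, from 105 to 96 and from 83 to 74 bases before the start, and 2 TGACG cores. A CArG box was present in 1.29% of 35116 promoter windows of this length. The IER2 window held 1 TGACG core, a match found in 24.6% of windows. Neither NR4A1 window, nor that of IER5 or IER5L, held any of the searched motifs. The NR4A1 gene runs on to position 52059507, beyond both windows, and any start further downstream was not searched. Its result therefore covers these 2 windows only. The full CREB site was in 1.85% of all windows, the EGR sites in 5.07% and 0.795%, and the NR4A site in 1.22%. None of these was in the windows of EGR1, NR4A1, IER2, IER5 or IER5L. A match is only a run of letters, and no binding was measured here.

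The transcribed regions, in GENCODE 29 on GRCh38, are all protein-coding. EGR1 (ENSG00000120738) spans 138465490 to 138469315 on chromosome 5, plus strand, in 2 merged exon blocks. NR4A1 (ENSG00000123358) spans 52022832 to 52059507 on chromosome 12, plus strand. IER2 (ENSG00000160888) spans 13150415 to 13154908 on chromosome 19, plus strand. IER5 (ENSG00000162783) is a single merged block from 181088712 to 181092899 on chromosome 1, plus strand. IER5L (ENSG00000188483) is a single merged block from 129175552 to 129178262 on chromosome 9, minus strand. NR4A2 (ENSG00000153234) lies on chromosome 2, minus strand, and EGR3 (ENSG00000179388) on chromosome 8, minus strand. Opposite-strand transcripts cover 30.8% of the exonic bases of IER2, 25.7% and 13.5% of those of IER5L (by 2 transcripts), 10.3% of NR4A1 and 3.4% of EGR3. Whether the counting used strand is not given in the sources used here, so reads of such partners cannot be told apart from those of the gene.

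Depth ran from 13.85 to 15.35 M counts (M stands for mega) with RB98# and DMSO, and from 24.03 to 34.38 M in shRBPMS and shCtrl. RBPMS, the target of the shRNA, was at 2.48, 3.35 and 3.09 CPM in shRBPMS replicates 1, 2 and 3, against 20.5, 7.27 and 7.42 CPM in shCtrl replicates 1, 2 and 3 (CPM, counts over the library total in M, scaled by TMM factors). The groups were separate, and RBPMS fell once the replicate number entered as a block (log2 fold change -1.79, edgeR adjusted p = 0.0106) but did not pass with group alone (-1.96, adjusted p = 0.0846). All 8 genes listed for the identity of the line, among them RUNX1T1, KIT, CD34 and MPO, had rows in both tables. With RB98# 4 of these 8 genes were called higher and 4 lower, beside 20.5% and 17.3% of all genes tested. On the log2 scale RUNX1T1 rose by 0.37, SPI1 by 0.26, RUNX1 by 0.23 and MPO by 0.22. CD33 fell by 0.84, CEBPA by 0.81, KIT by 0.40 and CD34 by 0.38. In the knockdown with group alone the myeloid genes CD33 (1.71) and SPI1 (1.498) rose and 0 of the 8 fell, beside 0.629% and 1.34% of all genes. With the block the same 2 genes rose and 2 fell, beside 13.3% and 14.8% of all genes. The falls were those of RUNX1T1 (-0.675, edgeR adjusted p = 0.00535) and RUNX1 (-0.286, adjusted p = 0.0496). Of 29 markers listed for T, B, monocytic, erythroid and megakaryocytic cells, 18 had no row in the RB98# table and 16 none in the knockdown table. The rest summed to 133 to 142 CPM with RB98# and 135 to 137 CPM with DMSO, and to 65.4 to 134 CPM in shRBPMS and 84.3 to 105 CPM in shCtrl. CD4, which myeloid cells also express, made up much of each sum, and without it the sums were 54.0 to 54.1 CPM with RB98# and 52.9 to 55.0 CPM with DMSO, and 22.1 to 22.8 CPM in shRBPMS and 32.4 to 37.8 CPM in shCtrl. Of single markers, CD3E (-3.08), CD3D (-1.91) and ITGA2B (-1.72) fell in the knockdown with group alone, and KLF1 (-1.30), CSF1R (-1.24) and PAX5 (-0.96) fell with RB98# (edgeR log2 fold changes). In the knockdown with the block CSF1R rose (1.47), and KLF1 (-1.02) and CD79B (-0.74) also fell. Their part in the results was not tested. In the knockdown experiment the library codes put replicate 1 of both groups in a label set apart from replicates 2 and 3 (set 1 and set 2), with mitochondrially encoded RNA at 13.2% and 15.2% of counts in replicate 1 of shRBPMS and shCtrl, and at 6.20% to 6.95% in the other knockdown libraries.

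With RB98#, 4 of the 5 measured genes rose, and 0 fell, in edgeR's quasi-likelihood test over 12324 genes (adjusted p under 0.05). NR4A1 rose most, 6.42-fold, followed by EGR1 at 3.17-fold, IER2 at 1.67-fold and IER5 at 1.33-fold. Over all genes tested 37.8% were called, 20.5% as higher and 17.3% as lower, so a call alone is common in this comparison. By size of rise, NR4A1 held rank 24 of 12324, EGR1 rank 93, IER2 rank 593 and IER5 rank 1608. With library totals in place of TMM factors the median gene moved by -0.10 on the log2 scale and the split of calls over all genes became 1690 higher and 3276 lower, against 2530 higher and 2129 lower. The same 4 genes were called higher under that scaling, beside 40.3% of all genes called, 13.7% as higher and 26.6% as lower.

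NR4A1, which encodes the orphan receptor NUR77, was at 41.4 and 40.1 CPM in the RB98# libraries, against 6.69 and 6.02 CPM in the DMSO libraries. Both treated libraries lay far above both controls, and the libraries of each group differed little from each other. The mean was 40.8 ± 0.947 CPM with RB98# and 6.36 ± 0.472 CPM with DMSO (SD, n = 2 each), a log2 fold change of 2.68 (SE 0.13, edgeR adjusted p = 1.53e-14). The counts behind these values were 607 and 537 with RB98#, against 98 and 96 with DMSO.

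EGR1, a zinc finger factor induced by growth signals, was at a low level in this experiment. It had 10.5 and 9.56 CPM with RB98# (154 and 128 counts), against 2.73 and 3.58 CPM with DMSO (40 and 57 counts). The groups did not overlap, and EGR1 was the gene of the set whose DMSO libraries differed most from each other, by 0.37 on the log2 scale. The log2 fold change was 1.66 (SE 0.21, edgeR adjusted p = 9.1e-07).

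IER2, a nuclear protein of the immediate early response, had 140 and 133 CPM with RB98#, against 81.9 and 82.1 CPM with DMSO. Its DMSO libraries were nearly equal, and the treated libraries stood apart from them. IER2 rose by 0.74 on the log2 scale (SE 0.07, edgeR adjusted p = 6.32e-09).

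IER5, a protein that acts with the heat shock factor HSF1, had 27.9 and 28.3 CPM with RB98#, against 21.2 and 20.96 CPM with DMSO. The groups were separate but close. IER5 rose by 0.41 on the log2 scale (SE 0.11, edgeR adjusted p = 0.00349), and it was not called without DMSO replicate 2 (0.40, adjusted p = 0.0594). In the authors' deposited table IER5 did not pass (0.42, adjusted p = 0.0620).

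IER5L, an IER5-related gene with a less studied product, had 7.71 and 6.94 CPM with RB98#, against 10.2 and 8.72 CPM with DMSO. Both treated libraries lay below both controls, yet the change did not pass (log2 fold change -0.36, SE 0.17, edgeR adjusted p = 0.104). With library totals it passed as lower (-0.46, adjusted p = 0.037). With 2 libraries a group, separate groups are common: 68.3% of all genes tested had no overlap, 34.3% higher and 34% lower with RB98#.

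**Figure D1:**
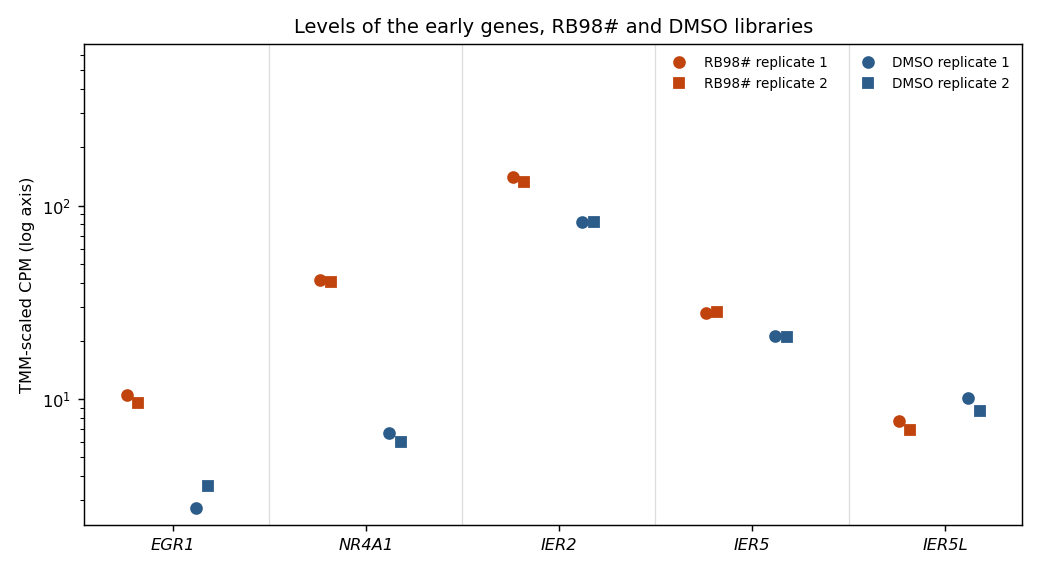
Levels of 5 early genes in each library of the RB98# experiment, in TMM-scaled CPM on a log axis, with RB98# left and DMSO right for each gene and a point per library. NR4A1 shows the widest gap, with 41.4 and 40.1 CPM against 6.69 and 6.02 CPM, and IER5L is the gene whose RB98# libraries lie below DMSO.

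Per length of merged exons, the order of the levels also differed between the groups. With RB98# the mean level was 44.4 CPM per kb for IER2, 6.71 for IER5, 5.59 for NR4A1, 3.20 for EGR1 and 2.70 for IER5L, and no neighbours in that order overlapped. With DMSO it was 26.7 CPM per kb for IER2, 5.04 for IER5, 3.49 for IER5L, 1.005 for EGR1 and 0.871 for NR4A1, where EGR1 and NR4A1 overlapped. IER2 had the highest level per length in both groups, and NR4A1 stood last of 5 with DMSO and was the third of 5 with RB98#. The place of NR4A1 depends on the length used. Its merged exons hold 7295 bases in 11 blocks, against 3138 for EGR1 and 4188 for IER5, and which transcripts were expressed was not measured. In CPM without length NR4A1 lay above EGR1 with DMSO (6.36 against 3.15) and above IER5 with RB98# (40.8 against 28.1).

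In the knockdown none of the 7 measured genes passed with group alone (edgeR, 0 up and 0 down of 7, beside 1.97% of 16215 genes called, 0.629% as higher and 1.34% as lower). IER5L alone had an unadjusted edgeR p under 0.05, 1 of 7 genes beside 2733 of the 16215 tested, so such a p is common here. With limma-voom 0 of 7 were also called, beside 1.85% of all genes. DESeq2 called IER5L (1 of 7 as lower, beside 8.26% of all genes, 3.18% as higher and 5.08% as lower). With the replicate number as a block IER5L fell, 1 of 7 genes beside 28.1% called over all genes, 13.3% as higher and 14.8% as lower. IER5L was also the single gene of the set whose groups did not overlap, which held for 25.8% of genes tested, 14.2% lower in shRBPMS.

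IER5L had 14.4, 7.51 and 8.86 CPM in shRBPMS replicates 1, 2 and 3, against 32.5, 21.4 and 19.0 CPM in shCtrl replicates 1, 2 and 3. The shRBPMS library was the lower one at each number, and replicate 1 was the highest in both groups. The mean was 10.3 ± 3.67 CPM in shRBPMS and 24.3 ± 7.21 CPM in shCtrl (SD, n = 3 each). The log2 fold change was -1.23 with group alone (SE 0.32, edgeR adjusted p = 0.112) and -1.24 with the block (SE 0.11, adjusted p = 0.00076). By number, the log2 ratio was -1.17, -1.50 and -1.09 for replicates 1, 2 and 3. In the authors' deposited table the log2 fold change was -1.27 (adjusted p = 1.84e-08).

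EGR1 varied more between replicates than between the groups. It had 34.5, 199.5 and 361 CPM in shRBPMS replicates 1, 2 and 3, against 23.0, 270 and 587 CPM in shCtrl replicates 1, 2 and 3. In both groups replicate 1 was lowest and replicate 3 highest, and the groups overlapped, with the shRBPMS range inside that of shCtrl. The raw counts ran from 862 to 10058 in shRBPMS and from 514 to 20478 in shCtrl, so counting error is small beside this spread. In bulk RNA, fewer expressing cells and less RNA per cell cannot be told apart. Its log2 fold change was -0.56 with an SE of 1.12 (edgeR adjusted p = 0.885) and -0.23 with the block (SE 0.22, adjusted p = 0.472). Without shCtrl replicate 3 the direction turned, without a call (0.43, adjusted p = 0.928).

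The spread of EGR1 was large next to that of other genes in the same libraries. Replicate 3 over replicate 2, libraries of the same label set, gave a log2 ratio of 0.85 in shRBPMS and 1.12 in shCtrl, where the median gene differed by 0.095 and 0.09 in either direction. A ratio at least as far from 0 was found in 2.88% of 16215 genes in shRBPMS and 0.9% in shCtrl. Replicate 2 over replicate 1, across label sets, gave 2.53 in shRBPMS and 3.55 in shCtrl, where 0.549% and 0.16% of genes lay as far from 0. The mitochondrial share given above also parts replicate 1 from the other libraries, and its part in these values was not tested.

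EGR3, a close relative of EGR1, had low counts in most libraries. It had 8, 12 and 40 counts in shRBPMS replicates 1, 2 and 3, against 0, 37 and 212 counts in shCtrl replicates 1, 2 and 3. A count of 0 allows up to 3 counts, or 0.134 CPM, from counting error alone, and the highest level was 6.07 CPM in shCtrl replicate 3. Like EGR1, EGR3 was highest in replicate 3 of both groups. For EGR3 the fitted log2 fold change was -1.77 (SE 1.30, edgeR adjusted p = 0.588) and -1.48 with the block (SE 0.62, adjusted p = 0.117), and without shCtrl replicate 3 it was 0.09.

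IER2 also differed between the label sets. It had 24.03, 65.6 and 63.9 CPM in shRBPMS replicates 1, 2 and 3, against 19.4, 85.3 and 108 CPM in shCtrl replicates 1, 2 and 3. Replicate 1 was again the lowest in both groups. For IER2 the fitted log2 fold change was -0.47 (SE 0.63, edgeR adjusted p = 0.811) and -0.30 with the block (SE 0.18, adjusted p = 0.25).

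NR4A1, the gene that rose most of the set with RB98#, was lower in the shRBPMS means without passing. It had 8.28, 9.63 and 9.37 CPM in shRBPMS replicates 1, 2 and 3, against 8.01, 15.1 and 13.8 CPM in shCtrl replicates 1, 2 and 3. The replicate 1 libraries of both groups were nearly equal, and the other shRBPMS libraries lay below their shCtrl partners. The log2 fold change was -0.43 (SE 0.26, edgeR adjusted p = 0.472) and -0.40 with the block (SE 0.16, adjusted p = 0.103).

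NR4A2, which encodes the receptor NURR1, was the gene with the highest ratio of shRBPMS over shCtrl means. It had 29, 62 and 41 counts in shRBPMS replicates 1, 2 and 3, against 9, 34 and 42 counts in shCtrl replicates 1, 2 and 3. These counts are low, and the groups overlapped. NR4A2 had a fitted log2 fold change of 0.75 (SE 0.46, edgeR adjusted p = 0.485) and 0.79 with the block (SE 0.29, adjusted p = 0.0888).

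IER5 had the smallest fitted difference of the 7 genes between the groups. It had 21.55, 36.1 and 35.9 CPM in shRBPMS replicates 1, 2 and 3, against 20.5, 36.7 and 31.7 CPM in shCtrl replicates 1, 2 and 3. The lowest library was replicate 1 in both groups. For IER5 the log2 fold change was 0.08 (SE 0.28, edgeR adjusted p = 0.946) and 0.09 with the block (SE 0.08, adjusted p = 0.447).

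**Figure D2:**
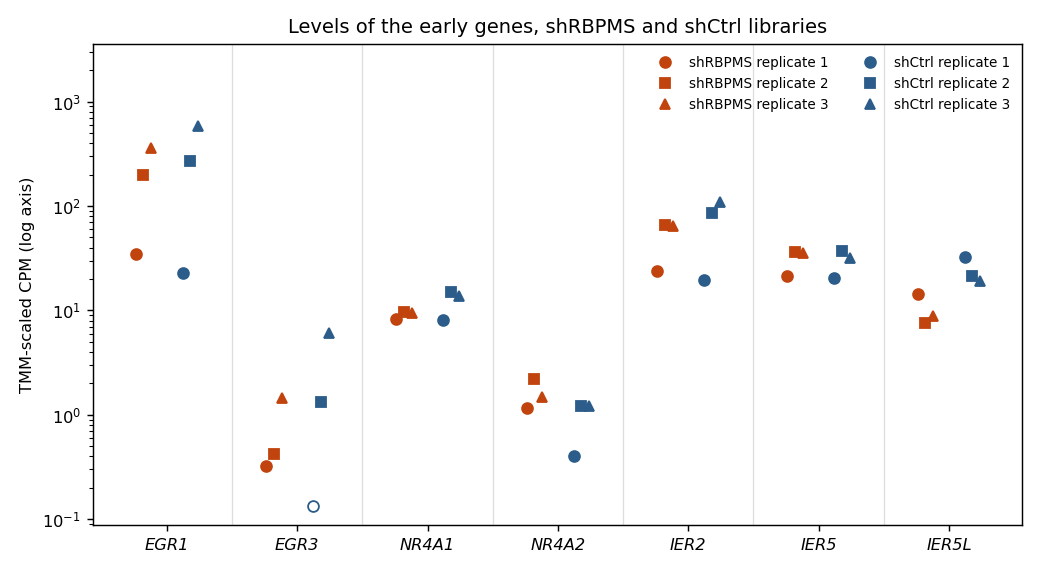
Levels of 7 early genes in each library of the knockdown experiment, in TMM-scaled CPM on a log axis, with shRBPMS left and shCtrl right for each gene and a marker shape per replicate number. EGR1 runs from 34.5 to 361 CPM in shRBPMS and from 23.0 to 587 CPM in shCtrl, IER5L is the gene whose groups are separate, and the open point is EGR3 at a count of 0, drawn at 0.134 CPM.

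The knockdown ratio had another sign in set 1 than in set 2 for EGR1, EGR3 and IER2, and by sign alone also for NR4A1. In set 1 (replicate 1) the log2 ratio of shRBPMS over shCtrl was 0.58 for EGR1 and 0.31 for IER2, and 0.05, close to 0, for NR4A1. EGR3 had 8 counts there in shRBPMS against 0 in shCtrl. With the 8 counts taken as they stand and shCtrl at the limit of 3 counts, the ratio was 2.38-fold. This leaves out the counting error of the 8 counts and is no lower bound. The sign for EGR3 in set 1 thus rests on few counts. For replicates 2 and 3 the log2 ratio was -0.44 and -0.70 for EGR1, -1.50 and -2.03 for EGR3, -0.38 and -0.76 for IER2, and -0.65 and -0.56 for NR4A1. A positive ratio in replicate 1 with negative ratios in replicates 2 and 3 was found in 8.17% of 16215 genes, and the opposite pattern in 8.29%. IER5L was negative and NR4A2 positive at all 3 numbers. Within set 2 alone edgeR called 5 of 7 genes lower (EGR1, EGR3, NR4A1, IER2 and IER5L) and 0 higher, beside 42.2% of all genes called, 21.7% as lower. The log2 fold changes there were -0.62 for EGR1 (adjusted p = 0.0196), -2.04 for EGR3 (adjusted p = 0.000931), -0.60 for NR4A1, -0.58 for IER2 and -1.30 for IER5L. That fit takes replicates 2 and 3 as independent, and set 1, with 1 library a group, allows no test of its own. Whether the effect differs between the sets was not tested.

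**Figure D3:**
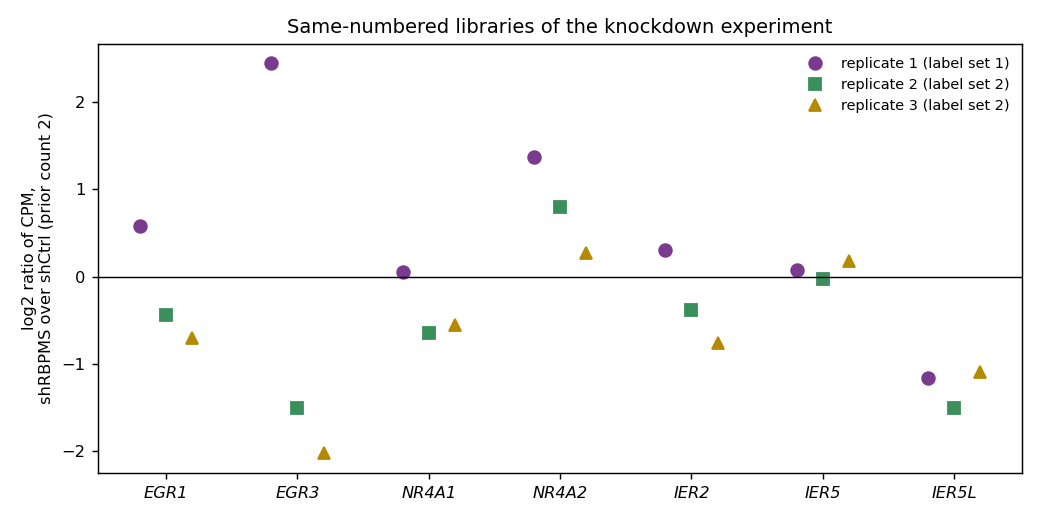
Log2 ratio of CPM, shRBPMS over shCtrl, for same-numbered libraries, with a marker per replicate number and a line at 0. EGR1, EGR3, IER2 and, only just (0.05), NR4A1 lie above 0 for replicate 1 and below 0 for replicates 2 and 3. IER5L lies below 0 for all 3. The height of the EGR3 point for replicate 1 depends on the prior count of 2, since shCtrl had 0 counts.

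Per length of merged exons, the mean level in shRBPMS was 63.2 CPM per kb for EGR1, 16.65 for IER2, 7.44 for IER5, 3.79 for IER5L, 1.25 for NR4A1, 0.405 for NR4A2 and 0.15 for EGR3. In shCtrl it was 93.45 CPM per kb for EGR1, 23.1 for IER2, 8.96 for IER5L, 7.08 for IER5, 1.69 for NR4A1, 0.508 for EGR3 and 0.238 for NR4A2. Most neighbours in these orders overlapped between libraries. The exceptions were NR4A1, separate from IER5L above it and NR4A2 below it in shRBPMS, and NR4A1, separate from IER5 above it in shCtrl. The places of IER5 and IER5L, and of EGR3 and NR4A2, are therefore not settled within a group. The merged length of NR4A1 given above bears on its place here too. EGR1 was at 2.73 and 3.58 CPM with DMSO, below each shCtrl library, and IER2 at 81.9 and 82.1 CPM lay within the shCtrl range. The experiments were scaled apart and differ in more than the control treatment, so these levels are side by side only.

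Both effects were compared in a fit of all 10 libraries over the 12126 shared genes, as (RB98# over DMSO) minus (shRBPMS over shCtrl). This asks whether the compound and the shRNA against RBPMS move a gene alike. RBPMS RNA itself had a log2 fold change of 0.11 with RB98# (SE 0.19, edgeR adjusted p = 0.678). NR4A1 differed, by 3.09 on the log2 scale (SE 0.35, edgeR adjusted p = 0.00392), 1 of 5 genes beside 8.15% of all genes called, 4.79% as positive. The estimate was 2.198 for EGR1 (SE 1.74, adjusted p = 0.505), 1.18 for IER2 (SE 0.88, adjusted p = 0.475), 0.85 for IER5L (SE 0.45, adjusted p = 0.303) and 0.31 for IER5 (SE 0.39, adjusted p = 0.7). In this fit a gene has 1 spread shared by both experiments. For EGR1 the SE was 0.21 with RB98# alone and 1.12 in the knockdown alone. With the replicate number as a block within each experiment 4 of 5 passed as positive, beside 37.1% of all genes called, 18.9% as positive. They were NR4A1 (3.07, edgeR adjusted p = 4.5e-05), EGR1 (1.88, adjusted p = 0.00905), IER2 (1.03, adjusted p = 0.00851) and IER5L (0.86, adjusted p = 0.00787). IER5L had negative estimates in both experiments with the block, -0.365 with RB98# and -1.24 in the knockdown. Its positive difference thus reflects a less negative estimate with RB98#, not a rise. The RB98# estimate itself did not pass (edgeR adjusted p = 0.107). With library totals the split over all genes was 504 positive and 591 negative, against 581 and 407.

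**Figure D4:**
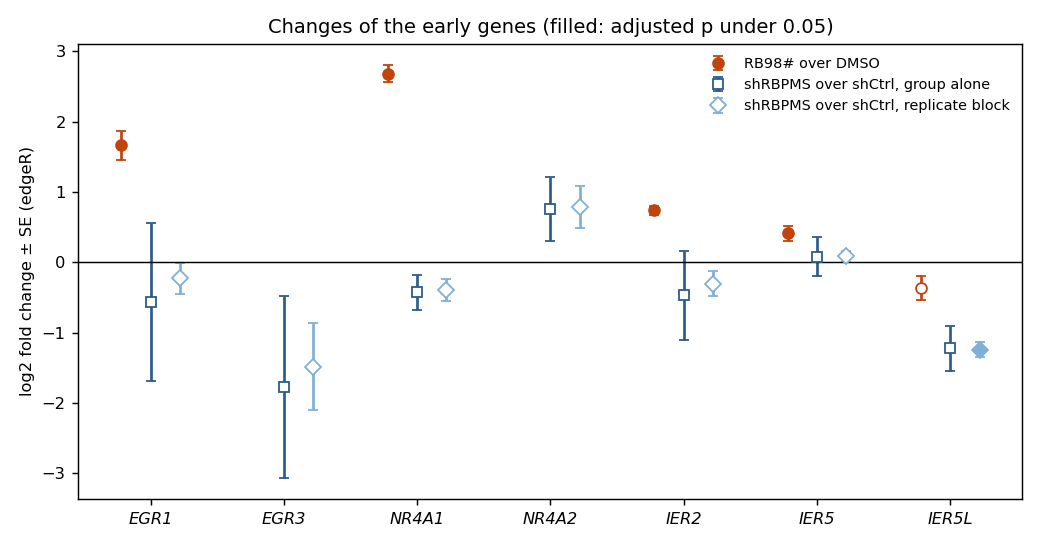
Log2 fold changes with SE from edgeR for RB98# over DMSO and for shRBPMS over shCtrl with group alone and with the replicate block, with filled markers for an adjusted p under 0.05. NR4A1 reaches 2.68 and EGR1 1.66 with RB98#, and IER5L is filled at -1.24 in the blocked knockdown fit.

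Other immediate early genes were listed with earlier results of these data known, 41 genes besides the set above. With RB98# 27 of 37 tested rose and 3 fell, with a median log2 fold change of 0.94 beside 0 over all genes, where 20.5% were called higher and 17.3% lower. The largest rises were those of JUN (3.93, edgeR adjusted p = 2.14e-21) and JUND (2.53), subunits of the AP-1 factor, ATF3, a stress-induced factor of the CREB family (3.08), and RHOB, a small GTPase (2.53). The 3 falls were those of DUSP2 (-0.76), DUSP6 (-0.71), both phosphatases of MAP kinases, and MYC (-0.50). In the knockdown with group alone 0 of 38 rose and 2 fell, beside 0.629% and 1.34% of all genes. The list median was -0.24 beside 0.015 over all genes. The falls were those of ZFP36L1, an RNA-binding protein that promotes mRNA decay (-2.79, edgeR adjusted p = 0.0314), and DUSP4, a MAP kinase phosphatase (-1.97, adjusted p = 0.0292). Both levels were low. ZFP36L1 was at 0.14 to 0.39 CPM in shRBPMS against 1.58 to 2.46 CPM in shCtrl, and DUSP4 at 0.76 to 1.13 CPM against 3.12 to 4.48 CPM. With the block 8 of 38 rose and 8 fell, beside 13.3% and 14.8% of all genes. KLF2 (1.25) and JUND (0.81) had the largest rises there, and ZFP36L1 (-2.80), DUSP4 (-1.95), FOSL2 (-1.11) and FOS (-0.55) the largest falls. FOS (log2 fold change -0.58, SE 1.30) and FOSB (-0.18, SE 1.25) shared the wide spread of EGR1 in the fit with group alone.

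**Figure D5:**
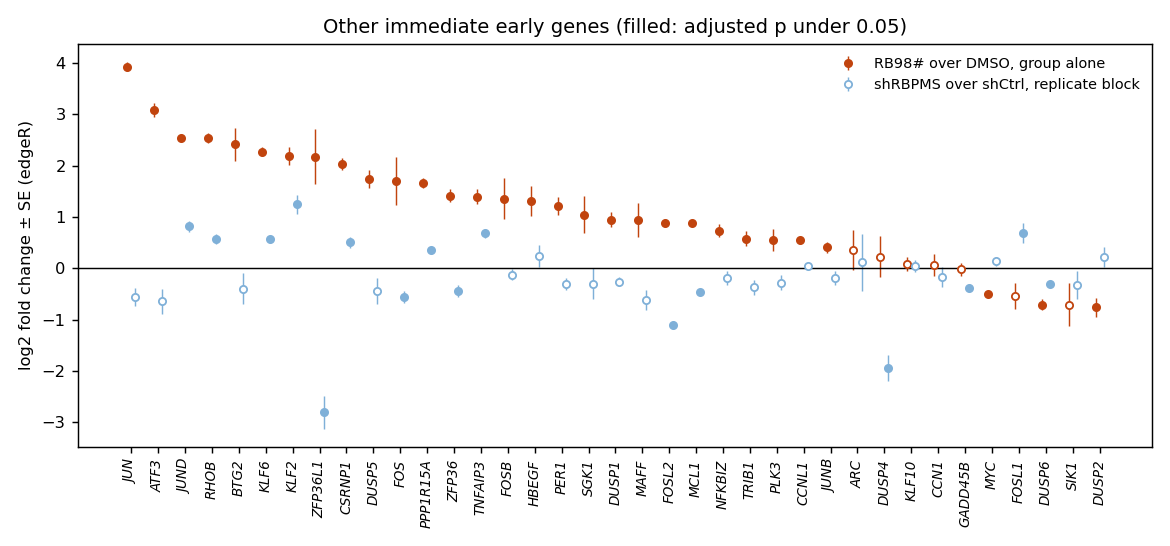
Log2 fold changes with SE from edgeR for other immediate early genes, ordered by the change with RB98# over DMSO (group alone) and set beside shRBPMS over shCtrl (replicate block), with filled markers for an adjusted p under 0.05. Most genes lie above 0 with RB98#, with JUN highest at 3.93, and the knockdown values lie on both sides of 0.

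Factors upstream of the set, and its partners, were listed as 20 genes. With RB98# 7 of 18 tested rose and 2 fell (median log2 fold change 0.19, beside 0 over all genes, of which 20.5% rose and 17.3% fell). SRF, which binds CArG boxes, rose by 1.73 on the log2 scale (edgeR adjusted p = 1.3e-16), and ELK4, an SRF partner, by 0.82. NAB2, a co-repressor that is itself an EGR target, rose by 0.85 (adjusted p = 5.74e-06), and NAB1 had 0.04 (adjusted p = 0.76). RXRA, a nuclear receptor that can pair with NR4A1, fell by 0.38. In the knockdown with group alone NAB1 fell (-0.93, edgeR adjusted p = 0.0322), the 1 call of 18, beside 1.97% of all genes called. NAB2 had 0.01 there (SE 0.57, adjusted p = 0.997). SRF had -0.52 (adjusted p = 0.17) and passed with the block (-0.52, adjusted p = 0.0023), where 4 of 18 rose and 5 fell, beside 13.3% and 14.8% of all genes. Of the list of ERK feedback genes, besides EGR1 and IER3, 3 of 10 tested rose with RB98# and 2 fell, a share near that over all genes (37.8% called, median of the list 0.03), with DUSP5 highest (1.74). In the knockdown with group alone 0 of 11 rose and 1 fell, DUSP4 (median -0.45), beside 0.629% and 1.34% of all genes. With the block 1 rose and 5 fell, beside 13.3% and 14.8% of all genes. The falls there included DUSP4 (-1.95), PHLDA1 (-1.08) and SPRED2 (-0.89). DUSP4, DUSP5 and DUSP6 are in both lists of early and feedback genes.

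The genes whose pattern over all 10 libraries lay nearest to EGR1 were found by the root mean square difference in log2 CPM, each experiment centred on its own mean. Among 9935 genes the nearest were CYP51A1 (0.65), STAG3L5P (0.70), IER2 (0.73), TXNDC12 (0.74) and SRXN1 (0.74), beside a median of 1.46. IER2 was the third nearest of the genes compared, whereas IER5 held rank 793, NR4A1 rank 1037 and IER5L rank 9749. The values share libraries and label sets, and this is a description of distance only.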

How the data were processed

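The authors deposited raw counts per gene and library, as the headers and whole-number values show. Upstream, DESeq2 1.32.0, StringTie, featureCounts 2.0.1, HISAT2 2.2.1, fastp 0.22.0 and GRCh38 are listed, per the submitters' processing notes, without roles. The knockdown table also has a signal column per library, adjusted by the authors in an unstated way, used here as quoted values only. The log2 fold changes and p-values of the authors' deposited tables are quoted where named. For RB98#, repeated lines (112) were dropped by identifier, and 4 per-library columns were not used. RNA immunoprecipitation and m6A samples (4 of 14) were not analysed here.

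Under R 4.3.3, edgeR 4.0.16 gave two-sided quasi-likelihood tests with TMM factors, filterByExpr (a count of 10, a total of 15), group alone and Benjamini-Hochberg adjustment over all genes at 0.05. The SE is the size of the log2 fold change over the square root of F. Library ratios use log2 CPM with a prior count of 2. Same-numbered libraries of the knockdown shared deviations from their group means (correlation 0.852, 0.772 and 0.8 for replicates 1, 2 and 3 over 10606 genes), so blocked values are given where they bear on a call. Replicates 2 and 3 correlated as well across numbers (0.767 and 0.776), so these correlations do not part the replicate number from the label set. Alternatives included DESeq2 1.42.0 and limma-voom (limma 3.58.1). The genes and lists were chosen with earlier results of these data known. All 10 genes were to be named, with up to 4 called genes per direction and list, NAB1, NAB2 and SRF, and the 5 genes nearest to EGR1. FOS and FOSB were named for their spread after their values were seen. Counting intervals and limits cover counting error only.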

Additional observations from a re-analysis of the deposited data

Results flagged for a closer look

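NR4A1 was the gene whose response differed between the experiments in the fit of all 10 libraries with group alone. The log2 fold change of RB98# over DMSO exceeded that of shRBPMS over shCtrl by 3.09 (SE 0.35, edgeR adjusted p = 0.00392). NR4A1 was at 41.4 and 40.1 CPM with RB98#, against 6.69 and 6.02 CPM with DMSO. It was at 8.28 to 9.63 CPM in shRBPMS and 8.01 to 15.1 CPM in shCtrl. The difference was called in every alternative tried, with values from 2.92 to 3.32 over 16 alternatives.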

How the results depend on the processing

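With RB98# 4 of 5 genes were called in all alternatives except 2: 5 with library totals, where IER5L was added, and 3 without DMSO replicate 2, where IER5 was lost (3 to 4 over single libraries left out). The RB98# count over all genes was 4659, and 2731 to 5028 with a library left out. The RB98# numbers share a number only (correlation -0.0585 between same-numbered libraries over 10443 genes), and the replicate block left 4 of 5 genes and 4430 genes called.

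In the knockdown 0 of 7 genes were called, also with any library left out (0 to 0). The count was 1 with DESeq2, the replicate block, the label set as covariate and replicates 2 and 3 summed with that covariate. It was 5 with label set 2 alone. The alternatives added after seeing the data gave 5 for the replicate block without replicate 1, and 1 without replicate 2 and 1 without replicate 3. Over all genes 320 were called with group alone, 1339 with DESeq2, 4549 with the replicate block, 5810 with the covariate, 2681 summed, 6830 in set 2 alone, and 7106, 2657 and 2975 for the block without replicates 1, 2 and 3. With a library left out the count ran from 0 (without shCtrl replicate 3, shRBPMS replicate 2 or shRBPMS replicate 3) to 322, with 2 without shCtrl replicate 2 and 37 without shRBPMS replicate 1. Directions turned, without a call, for EGR1 (-1.33 to 0.43, and 0.06 for the block without replicate 3), EGR3 (-2.74 to 0.088) and IER5 (-0.13 to 0.28). The causes were not tested.

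For the difference 1 of 5 genes was called, 4 with the replicate block and 1 to 1 with a library left out. Over all genes it was 988, with 1796 for DESeq2, 4497 for the block and 92 to 1541 with a library left out. EGR3 and NR4A2 had low counts, 0 to 212 and 9 to 62 a library.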

Other observations

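Calls among 7 heat shock and stress genes were 2 higher and 2 lower with RB98#, beside 20.5% and 17.3% of all genes. ATF4 (0.85) and DDIT3 (0.84), transcription factors of the integrated stress response, rose with RB98# on the log2 scale, and the chaperone genes HSPA1B (-0.33) and HSPA8 (-0.21) fell (edgeR adjusted p = 1.89e-11, 6.02e-05, 0.000715 and 0.00152). In the knockdown DNAJB1, a co-chaperone, was the 1 of 7 that rose with the replicate block (0.53, edgeR adjusted p = 0.0154), beside 13.3% of all genes, and it did not pass with group alone.

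The authors' adjusted signal gave EGR1 4738, 2348 and 4367 in shRBPMS replicates 1, 2 and 3, against 3259, 3152 and 7140 in shCtrl replicates 1, 2 and 3. The gap between replicate 1 and the other libraries seen in the raw counts is not present in that signal. In the authors' deposited table EGR1 had a log2 fold change of -0.24 (adjusted p = 0.857).

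Of the genes with no row in the count tables, EGR2 had a CArG box in 1 of its 3 RefSeq promoter windows, and NR4A3 had 4 TGACG cores in its window.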
